A study of Mus musculus with 4 samples.

Results

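The interleukin 6 and oncostatin M axis was followed across 4 cell classes of mouse liver through 9 genes of 25149 in the deposited tables. The members are a named set: the ligand genes Il6, Osm and Lif, the receptor genes Il6ra, Il6st, Osmr and Lifr, the transcription factor gene Stat3 and the feedback inhibitor gene Socs3. All 9 were found. Nonparenchymal liver cells came from wild-type male mice aged 8 to 10 weeks, 2 mice per group, with 1 library per mouse. The CCl4 group received the hepatotoxin carbon tetrachloride mixed 1 to 9 with corn oil, injected intraperitoneally at 10 µl per g, 2 times a week for 5 weeks. The corn oil group received the vehicle on the same schedule, and livers were taken 48 hours after the last injection. Livers were digested with pronase and collagenase and hepatocytes were removed by centrifugation, so hepatocytes, the best known responders to IL-6, were not among the cells described here.

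IL-6 family cytokines signal through a shared receptor chain, gp130, the product of Il6st. IL-6 first binds its own receptor, encoded by Il6ra, on the cell surface or in shed form. Oncostatin M uses a complex of gp130 with the chain encoded by Osmr, and LIF a complex of gp130 with the chain encoded by Lifr. In mice, oncostatin M binds mainly the Osmr complex. The receptors activate JAK kinases and STAT3, and STAT3 induces Socs3, whose product then shuts down the gp130 complex. In liver the family is known for driving the acute-phase response and for its part in regeneration and fibrosis.

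The 9 genes lie on chromosomes 3, 5, 11, 13 and 15 of GRCm38. Osm, at chr11:4236420-4241026 on the forward strand, and Lif, at chr11:4257557-4272514 on the same strand, are neighbours. The same chromosome holds Socs3, at chr11:117966079-117970047, and Stat3, at chr11:100885098-100939540, both on the reverse strand. Osmr, at chr15:6813577-6874969 on the reverse strand, lies close to Lifr, at chr15:7090614-7197489 on the forward strand. Il6 lies at chr5:30013114-30019981, Il6ra at chr3:89864059-89913196 on the reverse strand and Il6st at chr13:112464070-112510086. Stat3 overlaps Stat5a, and Il6ra overlaps Gm42809, on the other strand. The sources do not state whether strand entered the counting, so the values of Stat3 and Il6ra are uncertain to that extent.

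Promoter sequence was available from RefSeq (GRCm38.p6) for 8 of the 9 genes, and the 250 bases before each RefSeq start were searched on both strands for 3 motifs. The STAT palindrome TTCNNNGAA was in 7.02% of 32851 promoter windows of the same length and in 1 of the 9 windows of the member genes, that of Socs3. The AP-1 motif TGANTCA was in 6.75% of all windows, and among the members in those of Il6 and Lif. The NF-kB motif, GGG and TTTCC with any 2 bases between them, was in 1.41% of all windows, and among the members in that of Il6. The Socs3 and Il6 stretches are shown because one belongs to the feedback gene of STAT3 and the other to the ligand that names the pathway, with the motif matches in capitals. A match in this window describes the letters and not a bound site. For Socs3 the RefSeq start, at 117969366, lies 681 bases downstream of the outer start of the gene span given above, so its stretch is upstream of the RefSeq start and inside that span, while for Il6 the starts are the same. The Socs3 stretch is chr11:117969487-117969616 on the reverse strand, and the Il6 stretch is chr5:30012864-30013113 on the forward strand.
Socs3: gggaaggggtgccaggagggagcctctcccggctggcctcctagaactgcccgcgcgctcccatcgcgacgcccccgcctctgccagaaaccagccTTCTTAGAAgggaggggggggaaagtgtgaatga
Il6: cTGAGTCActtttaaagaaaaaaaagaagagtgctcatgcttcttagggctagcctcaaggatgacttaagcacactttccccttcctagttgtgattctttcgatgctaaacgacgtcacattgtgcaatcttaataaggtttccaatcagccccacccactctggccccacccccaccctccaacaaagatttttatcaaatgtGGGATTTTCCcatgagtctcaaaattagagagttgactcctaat

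After filtering, 25861 of 27091 cells remained, between 5621 and 7247 per library, with a median of 4441 to 6793 UMIs (unique molecular identifiers, each counted as 1 RNA molecule) per cell. Cells were put into classes by gate genes: endothelial cells by Kdr, Ptprb and Egfl7, stellate cells by Reln, Colec11 and Lrat, Kupffer cells, the resident macrophages, by Clec4f, and monocytes by Chil3, F13a1 and Vcan. In the order corn oil 1, corn oil 2, CCl4 1 and CCl4 2, which is kept throughout, the endothelial gate held 5287, 5370, 3085 and 2795 cells, the stellate gate 179, 145, 462 and 144, the Kupffer gate 217, 222, 228 and 225, and the monocyte gate 43, 23, 911 and 1349. All 6 defining markers of each class that the gates did not use were detected in its own gate in every library. Between 283 and 883 cells per library met 2 or more gates and were left out of the classes. Libraries shared 42 to 70 cell barcodes per pair, and the CCl4 1 table was made in a separate pipeline run from the other 3. Of the 43 monocyte-gate cells of corn oil 1, 8 had fewer than 5 UMIs of the monocyte gene Lyz2, and stellate markers took 0.236% of the UMIs of that gate against 0.0400% to 0.0615% in the other 3 libraries. The monocyte changes of the members are therefore given with all cells and without the Lyz2-low cells of all libraries.

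Oncostatin M RNA was concentrated in monocytes, and its level there was higher in the CCl4 mice. Levels are given in CPM, the counts-per-million unit, over the UMIs of a gate after TMM scaling of the library sizes. Osm reached 59.8, 63.7, 201 and 158 CPM in the monocyte gate, from 36, 16, 1119 and 1262 UMIs. Both CCl4 libraries lay above both corn oil libraries. Osm rose by 1.55 on the log2 scale (SE 0.23, adjusted p = 0.0230, edgeR quasi-likelihood test, n = 2 mice per group). Without the 8 Lyz2-low cells of corn oil 1 and the 16 and 14 of the CCl4 mice the difference was 1.22 (adjusted p = 0.00943). The call was lost when the 5% of cells with the most UMIs were left out (1.01, adjusted p = 0.0638), and when corn oil 1 (adjusted p = 0.0618), CCl4 1 (0.302) or CCl4 2 (0.189) was left out, and with either CCl4 mouse left out 0 genes of all tested were called in that gate.

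The share of monocyte-gate cells with an Osm UMI was 44.2%, 43.5%, 48.3% and 42.1%. These cells had been read at different depths, with medians of 11013, 8491, 5616 and 5319 UMIs. After thinning of every cell to 1500 UMIs the share was 13.95%, 8.70%, 23.6% and 19.3%, again higher in both CCl4 mice, a difference whose exact two-sided permutation p cannot fall below 0.33 with 2 mice against 2. Endothelial cells, taken as the comparison for background, had a thinned share of 0.0378% to 0.389%, at median depths of 4243 to 6778 UMIs before thinning. Their Osm level, 0.81, 1.08, 3.61 and 1.78 CPM, was 1.13% to 1.80% of the monocyte level of the same library. The 4 libraries stood in the same order as for monocytes, and whether RNA released from monocytes accounts for it was not tested. The endothelial difference was 1.52 (adjusted p = 0.106).

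The number of monocytes differed between the groups along with the level per gate, and so did the total of Osm RNA in the libraries. Monocyte-gate cells were 0.628%, 0.317%, 14.8% and 24.0% of the kept cells. Over all kept UMIs Osm was at 2.78, 1.81, 31.8 and 38.3 CPM, from 131, 86, 1711 and 1601 UMIs. The monocyte gate held 27.5%, 18.6%, 65.4% and 78.8% of them. In corn oil 2 the endothelial gate held more of them than the monocyte gate did, 32.6%. Stellate and Kupffer gates held 0 to 21 Osm UMIs per library and did not pass the filter on low counts. Neutrophil markers, which bear on another known Osm source, took 0.00194%, 0.00271%, 0.0395% and 0.0601% of the monocyte-gate UMIs, and their part in the Osm difference was not tested. Kupffer markers took 0.286%, 0.402%, 0.148% and 0.142% of the same UMIs, more in both corn oil mice, and their part in the monocyte differences of Osm and Il6 was not tested.

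**Figure D1:**
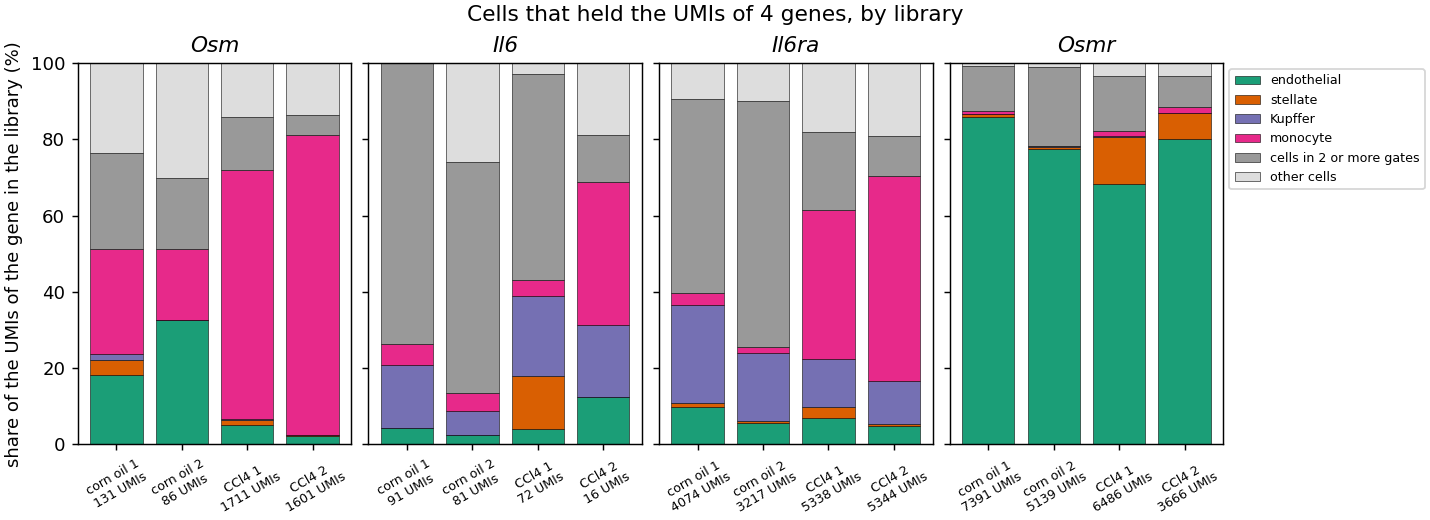
Share of the UMIs of Osm, Il6, Il6ra and Osmr in each library (vertical axis, percent) held by the 4 gates, by cells in 2 or more gates and by all other cells, with the library's UMI total of the gene under each bar. The monocyte part of Osm grows from 27.5% and 18.6% in the corn oil libraries to 65.4% and 78.8% in the CCl4 libraries, while most Il6 UMIs of the first 3 libraries lie in cells of 2 or more gates.

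Il6 RNA was close to the limit of detection in every class. The whole libraries held 91, 81, 72 and 16 Il6 UMIs. Cells that passed the Clec4f threshold, with or without a second gate, held 90.1%, 66.7%, 58.3% and 25% of them. An Il6 UMI was found in 8.65%, 4.49%, 4.61% and 1.20% of these Clec4f-positive cells, so that CCl4 2 was the lowest and the other 3 libraries overlapped between the groups. In the endothelial gate, 2 to 3 cells per library had an Il6 UMI. Most of these UMIs came from barcodes that also passed another gate, 67, 49, 27 and 1 UMIs against 15, 5, 15 and 3 in the Kupffer gate proper. Such barcodes, with medians of 13030 to 17411 UMIs per library for all cells in 2 or more gates, may hold more than 1 cell. Which cell type of such a barcode carried its Il6 RNA was not tested. Barcodes of only the endothelial and Kupffer gates had 7.43, 3.97, 3.49 and 0.55 CPM of Il6 without TMM scaling, from 40, 34, 14 and 1 UMIs. Those of only the endothelial and stellate gates had 0, 0, 2.82 and 0 CPM, from 0, 0, 4 and 0 UMIs. Stellate and monocyte barcodes of CCl4 1 held 8 Il6 UMIs in 2 cells. In corn oil 2, 21 further Il6 UMIs lay in 5 cells outside every gate, 16 of them in 1 cell.

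In the Kupffer gate the Il6 difference was -0.80 (SE 0.74, adjusted p = 0.503). In the monocyte gate Il6 had 5, 4, 3 and 6 UMIs, which gave 8.31, 15.9, 0.54 and 0.75 CPM because the gate was so much smaller in the corn oil mice. The fitted change was -4.00 (SE 0.74, adjusted p = 0.0412), and Il6 was thus called lower on 9 corn oil UMIs in 4 cells. Il6 passed the filter on low counts only through the corn oil libraries, where it was high. The direction of this call was therefore set by the filter, and the call is no support for a fall. Without the Lyz2-low cells it was -4.48 (adjusted p = 0.00805). It no longer passed the filter on low counts when any 1 library or the 5% of cells with the most UMIs were left out. The stellate gate held 10 Il6 UMIs in CCl4 1, 8 of them in 1 cell, and 0 in the other 3 libraries, where 3 UMIs would have corresponded to 3.42, 4.71 and 2.45 CPM. Endothelial cells held 2 to 4 Il6 UMIs per library.

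Lif was rare as well. The libraries held 20, 26, 121 and 89 Lif UMIs, more in both CCl4 mice. In the endothelial gate Lif had 5, 9, 27 and 20 UMIs, or 0.17, 0.35, 1.12 and 0.99 CPM. The groups did not overlap, and the difference of 2.03 (SE 0.54) did not pass the test over all genes (adjusted p = 0.0805). Lif passed the filter on low counts there only through the CCl4 libraries, so its sign was set by the filter. The monocyte gate held 7, 1, 24 and 35 Lif UMIs, and its difference of -1.05 (adjusted p = 0.350) changed sign to 1.12 without the Lyz2-low cells, since all 7 UMIs of corn oil 1 lay in 1 such cell. In the stellate gate Lif had 1, 1, 16 and 4 UMIs and was not tested.

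Stellate cells, the vitamin A storing pericytes of the liver that become myofibroblasts in fibrosis, had more RNA of both chains of the oncostatin M receptor in the CCl4 mice. Osmr was at 62.8, 61.2, 204 and 204 CPM in the stellate gate, from 55, 39, 801 and 250 UMIs. The 2 mice of each group were nearly equal and the groups lay far apart. Osmr rose by 1.72 (SE 0.19, adjusted p = 0.00145), and it was called under every alternative that was run, with adjusted p from 1.89e-10 to 0.0414. Il6st was at 452, 611, 1294 and 872 CPM in the same cells. Il6st rose by 1.03 (SE 0.24, adjusted p = 0.0305). This call was lost with a limit of 15% mitochondrial UMIs (adjusted p = 0.0593), without CCl4 1 (0.73, adjusted p = 0.313) and without CCl4 2 (1.31, adjusted p = 0.0768).

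These were 2 of the 6 members tested in stellate cells, both higher, while 5.29% of all genes tested there were called higher, 4.91% lower and 10.2% in either direction. The median change of the 6 was 0.62 against -0.00 over all genes. The 6 are those that passed the filter on low counts, not all members. Stellate-gate cells were read more deeply in the CCl4 mice, with median UMIs of 4420, 4237, 8074 and 7967. The share of cells with an Osmr UMI was 20.7%, 17.9%, 69.5% and 60.4% before thinning and 8.38%, 6.21%, 27.9% and 23.6% after thinning to 1500 UMIs. In the Kupffer gate, where Osmr was near its floor, the thinned share was 0% to 0.922%, at median depths of 7502 to 14622 UMIs before thinning. Fibroblast markers took 0.0802%, 0.0893%, 0.0898% and 0.149% of the stellate-gate UMIs, and the part of fibroblasts in the Osmr difference was not tested.

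Endothelial cells had Osmr at 213, 154, 183 and 145 CPM, with overlapping groups and a difference of -0.16 (SE 0.20, adjusted p = 0.688). The sign turned when corn oil 1 (0.10) or CCl4 2 (0.00079) was left out. In the joint fit the Osmr effect in stellate cells exceeded that in endothelial cells by 1.95 (SE 0.54), and this did not pass the test (adjusted p = 0.126). Its adjusted p ran from 5.04e-11 to 0.672 over the alternatives. A UMI of both Osmr and Il6st was found in 4.47%, 4.83%, 22.3% and 16.7% of stellate cells after thinning, and in 20.9%, 16.7%, 22.9% and 18.5% of endothelial cells. Stellate cells of the CCl4 mice thus lay within the range of the endothelial cells, and those of the corn oil mice below it.

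**Figure D2:**
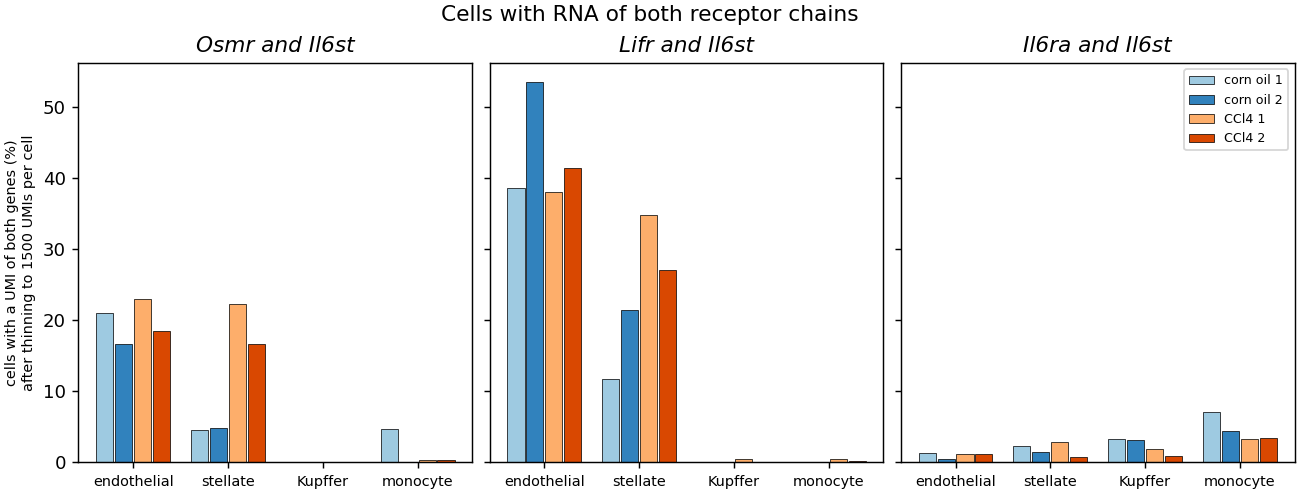
Share of cells with at least 1 UMI of both genes of a receptor pair (vertical axis, percent, after thinning of each cell to 1500 UMIs) by gate, with 1 bar per library. For Osmr with Il6st the stellate gate shows 4.47% and 4.83% in the corn oil mice and 22.3% and 16.7% in the CCl4 mice, and the Kupffer gate 0% in each library.

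Il6st, the gene of the shared chain, was high in endothelial and stellate cells and low in the Kupffer and monocyte gates. In endothelial cells it stood at 1059, 1373, 2063 and 1598 CPM, both CCl4 mice above both corn oil mice, with a difference of 0.59 (SE 0.19) that was not called (adjusted p = 0.124). In Kupffer cells it was at 45.9, 69.5, 43.7 and 26.5 CPM, a difference of -0.71 (adjusted p = 0.124). In monocytes it was at 89.8, 35.8, 59.7 and 45.4 CPM, and its difference of -0.38 (adjusted p = 0.581) turned to 0.32 without the Lyz2-low cells, which held 38 of the 54 Il6st UMIs of corn oil 1. The groups were apart by a narrow margin in Kupffer cells and overlapped in monocytes.

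Osmr in monocytes rested on those cells too. It had 57, 0, 83 and 55 UMIs, and all 57 of corn oil 1 lay in the 8 Lyz2-low cells. Its difference of -2.45 (adjusted p = 0.182) turned to 7.20 (adjusted p = 0.153) without them. The corn oil libraries then held 0 Osmr UMIs, so that fitted value depends on the prior count of the model and is no bound. In Kupffer cells Osmr had 11, 13, 14 and 3 UMIs and a difference of -1.18 (adjusted p = 0.263).

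Il6ra, the gene of the receptor specific to IL-6, was highest in the Kupffer and monocyte gates, where its fitted changes had opposite signs. In Kupffer cells Il6ra was at 469.6, 333, 214 and 183 CPM. The groups did not overlap, and Il6ra fell by 1.02 (SE 0.19, adjusted p = 0.00869). Without CCl4 2 the call was lost (-0.90, adjusted p = 0.0724). In monocytes Il6ra was at 216, 199, 374 and 358 CPM, both CCl4 mice above both corn oil mice. That difference of 0.81 (SE 0.18) was not called by edgeR (adjusted p = 0.0663), was called by DESeq2 (adjusted p = 0.00225) and was smaller without the Lyz2-low cells (0.57, adjusted p = 0.108).

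The thinned share of cells with an Il6ra UMI was 41.5%, 41.0%, 26.3% and 32.0% in Kupffer cells and 39.5%, 43.5%, 39.4% and 41.2% in monocytes. In endothelial cells it was 0.596% to 1.57%. The Kupffer shares were lower in both CCl4 mice, and the monocyte shares overlapped. The cells that held the Il6ra RNA of a library differed as well. The monocyte gate held 3.19%, 1.55%, 39.1% and 53.6% of it and the Kupffer gate 25.6%, 18%, 12.5% and 11.2%. Barcodes with Clec4f that also passed another gate held a further 2033, 2005, 713 and 288 of the 4074, 3217, 5338 and 5344 Il6ra UMIs. All Clec4f-positive cells thus held 75.5%, 80.3%, 25.9% and 16.6%, most of the Il6ra RNA in the corn oil mice and a smaller part in the CCl4 mice. Il6ra in stellate cells was at 55.9, 14.1, 38.3 and 33.5 CPM, with the 2 corn oil mice on either side of the CCl4 mice (difference -0.02, adjusted p = 0.984), and without corn oil 1 the difference was 1.35 (adjusted p = 0.0417). Endothelial cells had 13.3, 7.16, 15.4 and 12.5 CPM (adjusted p = 0.435).

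Lifr, the gene of the LIF receptor chain, was a gene of endothelial and stellate cells and was low in Kupffer cells. Kupffer cells had Lifr at 14.8, 21.3, 5.11 and 3.97 CPM, from 33, 37, 16 and 13 UMIs. Both CCl4 mice were below both corn oil mice, and Lifr fell by 1.97 (SE 0.37, adjusted p = 0.0100). The call was lost without CCl4 2 (adjusted p = 0.0592) and among Kupffer cells free of markers of other gates (-1.35, adjusted p = 0.112). Endothelial markers took 0.0690%, 0.0614%, 0.0468% and 0.0514% of the Kupffer-gate UMIs, and stellate markers 0.0499%, 0.0512%, 0.0266% and 0.0193%. Both lists were lower in the CCl4 mice, and their part in the Lifr difference was not tested beyond that alternative.

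Il6ra and Lifr were 2 of the 7 members tested in Kupffer cells, both lower, while 7.79% of all genes tested there were called lower, 7.55% higher and 15.3% in either direction. The median change of the 7 was -0.80 against -0.01 over all genes. That median is the value of Il6, which had 15, 5, 15 and 3 UMIs there. Il6st, Osmr and Socs3 stood at means of 46.4, 4.45 and 25.8 CPM in this gate, against 1523, 174 and 639 CPM in endothelial cells. The lower endothelial and stellate marker shares in the CCl4 mice bear on these genes as on Lifr, and their part in the median was not tested. In endothelial cells Lifr was at 496, 729, 381 and 424 CPM, both CCl4 mice below both corn oil mice, with a difference of -0.60 (SE 0.20) that was not called (adjusted p = 0.127). In stellate cells it was at 199.7, 311, 338 and 252 CPM, with overlapping groups (0.23, adjusted p = 0.625). In monocytes it was at 18.3, 15.9, 13.6 and 14.99 CPM (-0.29, adjusted p = 0.676), and without the Lyz2-low cells the difference was -0.65 (adjusted p = 0.380). A UMI of both Lifr and Il6st was found in 38.6%, 53.5%, 38.1% and 41.4% of endothelial cells after thinning and in 11.7%, 21.4%, 34.8% and 27.1% of stellate cells.

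**Figure D3:**
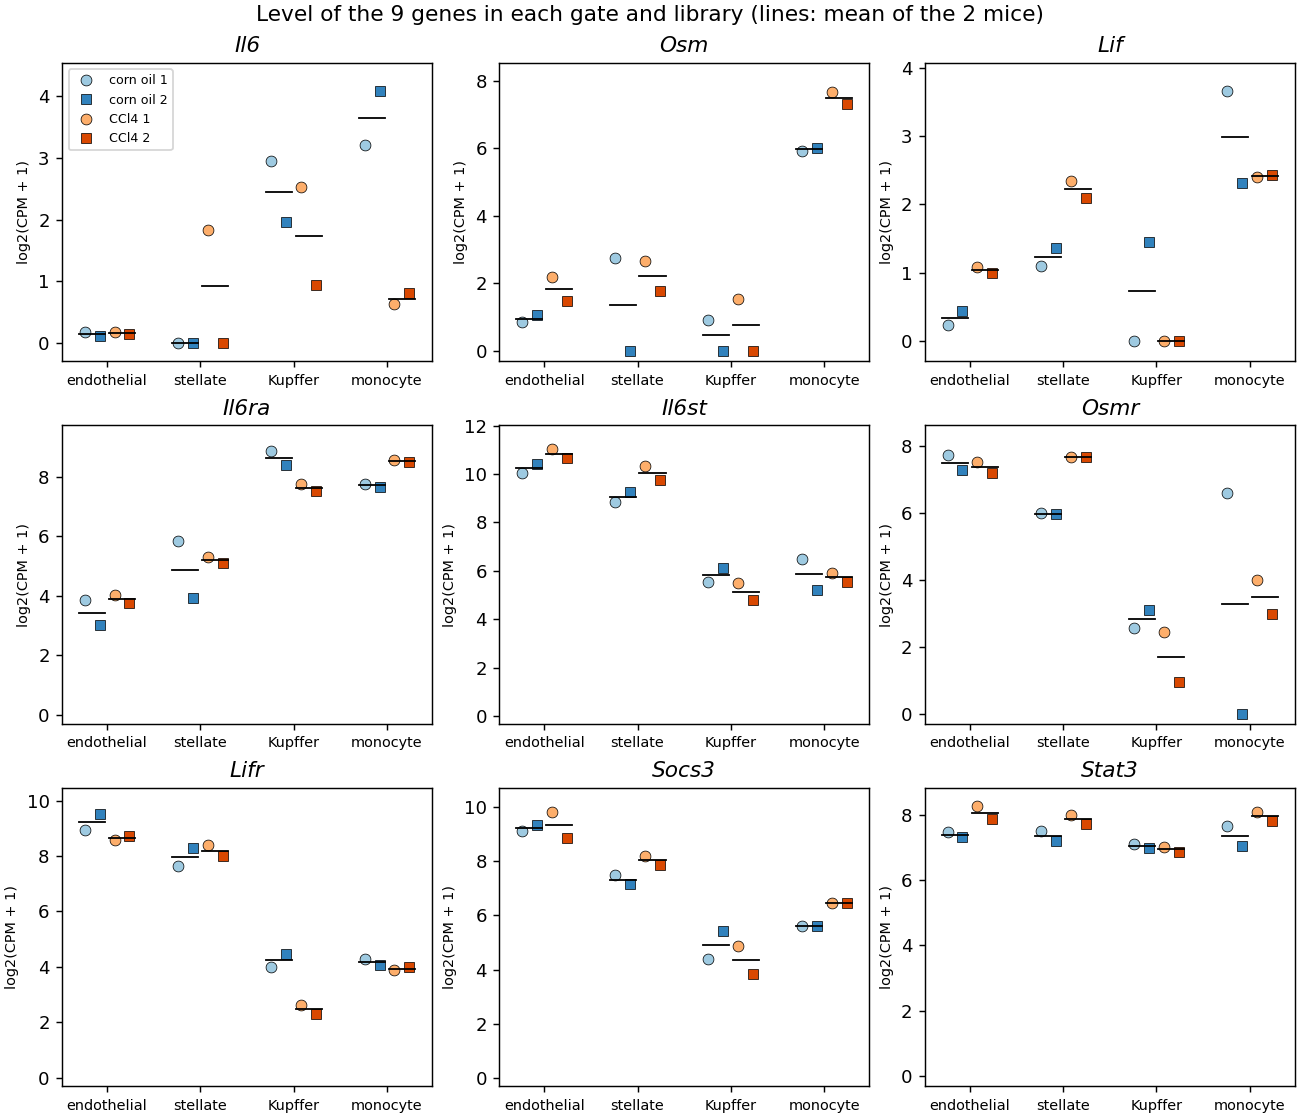
Level of the 9 genes in the 4 gates as log2(CPM + 1) (vertical axis), with 1 symbol per library (circles for mouse 1, squares for mouse 2, blue for corn oil, orange for CCl4) and a line at the mean of the 2 mice. In stellate cells the Osmr symbols of the CCl4 mice, both at 204 CPM, lie above those of the corn oil mice at 62.8 and 61.2 CPM, and the monocyte Osmr symbols of the corn oil mice lie far from each other.

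Stat3, the transcription factor gene, was detected in every class, and none of its differences was called. Endothelial cells had 178, 157, 304 and 231 CPM, with both CCl4 mice above both corn oil mice. The difference of 0.68 (SE 0.17) was not called by edgeR (adjusted p = 0.0686), and it was called by DESeq2 (adjusted p = 0.00871) and without TMM factors (adjusted p = 0.0398). Stellate cells had 179, 146, 255 and 210 CPM (0.51, adjusted p = 0.143), and the groups did not overlap. Kupffer cells had 136, 125, 129 and 115 CPM (-0.10, adjusted p = 0.692). Monocytes had 201, 131, 271 and 224 CPM (0.54, adjusted p = 0.258), and 49 of the 121 UMIs of corn oil 1 lay in the Lyz2-low cells, without which the difference was 0.61 (adjusted p = 0.0942).

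Socs3, the feedback gene with the STAT palindrome shown above, was not called in any class. In stellate cells it was at 178, 143, 293 and 234 CPM, the groups apart, with a difference of 0.72 (SE 0.20, adjusted p = 0.0604). In monocytes it was at 48.2, 47.8, 88.1 and 86.8 CPM, the 2 mice of each group close together, with a difference of 0.86 (SE 0.21, adjusted p = 0.0766) and of 0.81 without the Lyz2-low cells (adjusted p = 0.0544). Endothelial cells had 557, 641, 896 and 464 CPM, CCl4 1 the highest and CCl4 2 the lowest of the 4 (0.18, adjusted p = 0.759), and Kupffer cells 20.2, 41.9, 28.1 and 13.1 CPM (-0.57, adjusted p = 0.381). Socs3 is also an immediate early gene that tissue digestion can induce. A list of 10 immediate early and stress genes took 1.91%, 2.02%, 1.37% and 0.997% of endothelial UMIs, 0.908%, 0.790%, 1.13% and 0.911% of stellate UMIs and 0.687%, 0.431%, 0.792% and 0.748% of monocyte UMIs, and its part in the Socs3 values was not tested.

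No member was called in endothelial cells by edgeR, 0 of the 8 tested, where 5.42% of all genes tested were called, 2.85% higher and 2.57% lower. At an unadjusted p under 0.05 there were 5, and the share of all genes at that threshold was not counted. DESeq2 called 3 members (Il6st, Lifr and Stat3), where it called 1482 of 12868 genes. For limma-voom it was 0 members, where 684 of 13388 genes were called. Simulated 2-fold changes, drawn with the same fixed spread for every gene, were recovered for 71% of changed genes in this gate and for 41% in the stellate gate. Measured genes differ in spread, so these shares do not give the power for a member. The Kupffer and monocyte gates were not simulated. The median change of the 8 was 0.52 against -0.00 over all genes. Lif, among the 8, passed the filter on low counts only through the CCl4 libraries, where it was high, so this median is not support for a rise of the members. In monocytes 2 of 9 members were called, Osm higher and Il6 lower, where 5.47% of all genes tested were called, 2.40% higher and 3.06% lower. Il6 passed the filter on low counts only through the corn oil libraries, so its part in this count could go only that way. The median change of the 9 was -0.29 against 0.04 over all genes.

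**Figure D4:**
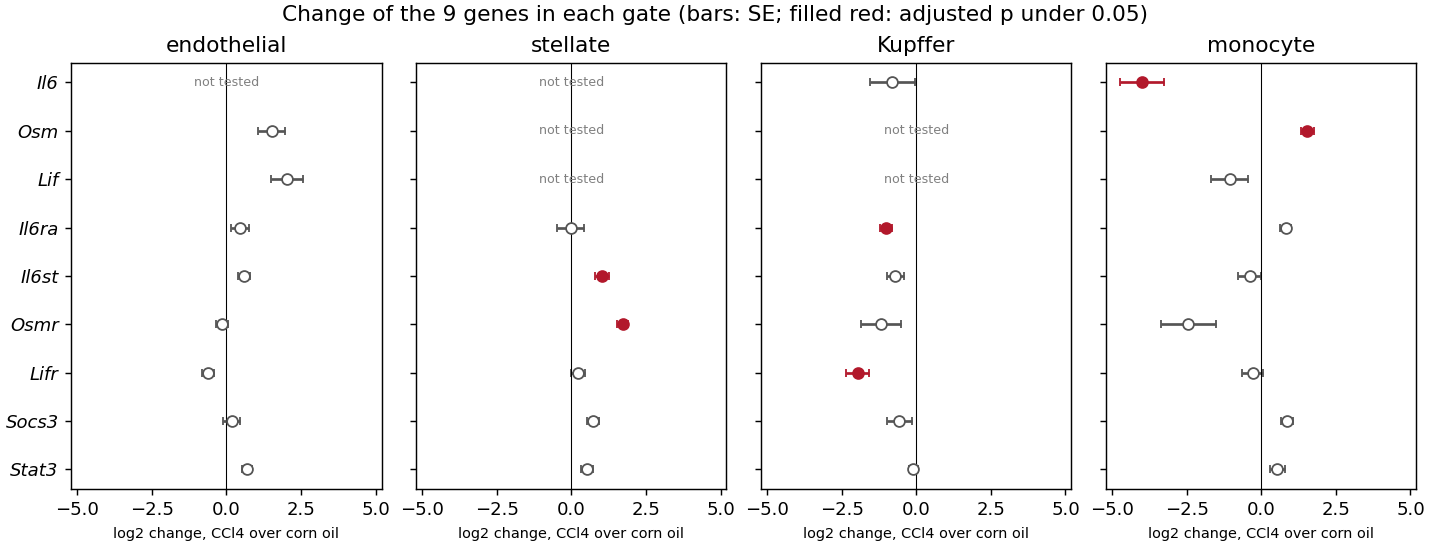
Change of each gene between the CCl4 and corn oil mice (horizontal axis, log2, with its SE as a bar) in the 4 gates, filled red where the adjusted p was under 0.05 and marked where the gene was not tested. The 6 filled symbols are Osmr and Il6st in stellate cells, Il6ra and Lifr in Kupffer cells, and Osm and Il6 in monocytes.

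The order of the classes by level was tested in a joint fit of all 16 sums with the mouse as a block, in which 41 of 54 member tests were called. The members called were 5 of 9 between stellate and endothelial cells (50.2% of all genes), 7 between Kupffer and endothelial cells (60.8%) and 8 between monocytes and endothelial cells (55.1%). They were 9 of 9 between Kupffer and stellate cells (56.0%), 6 between monocytes and stellate cells (48.0%) and 6 between monocytes and Kupffer cells (31.0%). Class differences were thus common among all genes. Mean levels over the 4 libraries ordered Osm as monocyte (120.5 CPM), stellate (3.38), endothelial (1.82) and Kupffer (0.70), and only monocytes stood apart from their neighbour (4.93 on the log2 scale, adjusted p = 3.71e-07). Il6ra was highest in Kupffer cells (299.7 CPM) and monocytes (287), between which no difference was detected (0.11, adjusted p = 0.680), then stellate (35.5) and endothelial cells (12.1), with called steps of 3.04 and 1.51. Il6st and Lifr both ran from endothelial through stellate to monocyte and Kupffer cells. Their endothelial levels were 1523 and 508 CPM and their stellate levels 807 and 275 CPM, with called differences of 1.08 and 0.95. Both genes were also called higher in stellate cells than in monocytes (3.50 and 3.94). Monocytes and Kupffer cells differed for Lifr (0.81, adjusted p = 0.01995) and not detectably for Il6st (0.42, adjusted p = 0.134), and the Lifr call was lost without corn oil 1 (adjusted p = 0.407) or CCl4 2 (0.0915).

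Osmr ran in the same order, with 174 CPM in endothelial and 133 in stellate cells, a called difference of 0.72 (adjusted p = 0.0436) although endothelial cells were above stellate cells in 2 of the 4 libraries, the corn oil ones, and the call was lost without CCl4 1 (adjusted p = 0.221) or CCl4 2 (0.111). Its 29.1 CPM in monocytes came largely from corn oil 1, and the step to Kupffer cells of 2.56 turned to -3.86 without the Lyz2-low cells. Socs3 fell in called steps from endothelial (639 CPM) to stellate (212), monocyte (67.7) and Kupffer cells (25.8). Stat3 did not differ detectably between endothelial (217 CPM), monocyte (207) and stellate cells (197), and was lower in Kupffer cells (126, a step of 0.45, adjusted p = 0.00159). For Lif no step between neighbouring classes was called. For Il6 the mean was higher in monocytes (6.38 CPM) than in Kupffer cells (3.83), while the fitted difference had the other sign (adjusted p = 0.693). Kupffer cells were called above stellate cells for Il6 (4.69, adjusted p = 0.0265), and this was lost without corn oil 1 (0.195), corn oil 2 (0.0619) or CCl4 1 (0.0957).

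Whether CCl4 changed a gene differently in 2 classes was tested in the same joint fit, and 8 of 54 member tests were called. Between Kupffer and stellate cells 2 of 9 members were called, Il6st (-1.76, SE 0.35, adjusted p = 0.0422) and Lifr (-2.24, adjusted p = 0.0128), where 0.784% of all genes were. Between Kupffer and endothelial cells it was 1 of 9, Il6ra (-1.45, adjusted p = 0.0319), where 2.52% of all genes were called. Between monocytes and Kupffer cells 3 of 9 were called, where 14.2% of all genes were: Il6ra (1.92, SE 0.32, adjusted p = 0.00245), Lifr (1.65, adjusted p = 0.0269) and Stat3 (0.69, adjusted p = 0.0391). Each of the 3 changes lay higher in monocytes than in Kupffer cells. Between monocytes and stellate cells it was 2 of 9, where 12.9% of all genes were called: Il6st (-1.46, adjusted p = 0.0254) and Osmr (-4.16, adjusted p = 0.00379), the latter 6.78 with the other sign and not called (adjusted p = 0.478) without the Lyz2-low cells. Without those cells the call of Il6st was lost too (adjusted p = 0.147), as was that of Lifr between monocytes and Kupffer cells (0.0921), while those of Il6ra (1.68, adjusted p = 5.65e-04) and Stat3 (0.77, adjusted p = 0.0176) were kept. Among cells free of markers of other gates, both Lifr calls were lost (0.171 against stellate cells and 0.540 against monocytes).

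By edgeR 0 of 9 members were called between stellate and endothelial cells, where 0.942% of all genes were called. At an unadjusted p under 0.05 there were 2, and limma-voom called 1. Of all 12629 genes, limma-voom called 88 with a higher and 124 with a lower effect in stellate cells. Between monocytes and endothelial cells it was likewise 0 of 9 by edgeR, where 11.8% of all genes were called, with 4 at an unadjusted p under 0.05. For this pair limma-voom called 2 members, and of all 12629 genes 611 with a higher and 1244 with a lower effect in monocytes. The share of all genes at the unadjusted threshold was not counted for either pair. These tests depended on both CCl4 mice: without CCl4 1 the 54 tests gave 1 call, Osmr between monocytes and stellate cells, and without CCl4 2 they gave 0. Stat3 was lost without any 1 of the 4 libraries, with adjusted p of 0.0524 and 0.0649 when a corn oil mouse was left out (1 and 2) and of 0.342 and 0.263 when a CCl4 mouse was (1 and 2). The stellate rise of Osmr, called within stellate cells, was therefore not shown to differ from the endothelial change.

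Of 24 genes reported as STAT3 targets, some were called higher and some lower in each class. The list was chosen with earlier results of these data known. Its counts and medians in the 4 classes are therefore no support for a change of STAT3 targets as a set. Over all genes the median changes stood between -0.01 and 0.04. In endothelial cells 7 were called higher and 2 lower of 24 tested, where 2.85% of all genes were called higher and 2.57% lower, with a median change of 0.64. Serpina3n, a secreted serine protease inhibitor and acute-phase gene, was at 7.25, 4.07, 211 and 234 CPM there, and rose by 5.29 (adjusted p = 0.00105). Lrg1, a secreted leucine-rich glycoprotein, was at 71.4, 45.5, 644 and 456 CPM and rose by 3.23 (adjusted p = 0.00343). Both genes were far apart between the groups. The 2 that fell were Cebpd, a C/EBP transcription factor, by 0.87, and Ccnd1, cyclin D1, by 0.83. Their calls were lost with corn oil 1 left out (adjusted p = 0.0660 and 0.0884), and likewise with CCl4 1 (0.0689 and 0.178) or CCl4 2 (0.134 and 0.159).

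In stellate cells 8 targets were called higher and 2 lower of 24 tested, where 5.29% of all genes were called higher and 4.91% lower, with a median change of 0.56. Of the 8, Saa3, Serpina3n, Il1rn, Nfil3, Timp1 and Lcn2 passed the filter on low counts only through the CCl4 libraries. These could be called only higher, and their part in the count and the median is not support for a rise of the list. Saa3, an acute-phase serum amyloid gene, had 1, 0, 1129 and 268 UMIs, or 1.14, 0, 288 and 219 CPM. Serpina3n had 6, 0, 1909 and 937 UMIs, or 6.85, 0, 487 and 765 CPM. Both were nearly undetected in the corn oil mice and called higher (adjusted p = 1.04e-04 and 3.01e-04). Pim3, a kinase, fell by 1.12 and Cebpd by 0.82, calls that were lost without CCl4 1 (adjusted p = 0.109 and 0.193) and without CCl4 2 (0.192 and 0.223).

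In Kupffer cells 3 targets were called higher and 5 lower of 22 tested, where 7.55% of all genes were called higher and 7.79% lower, with a median change of -0.32. Il1rn, the interleukin 1 receptor antagonist, was at 11.7, 20.7, 435 and 329 CPM and rose by 4.59 (adjusted p = 5.72e-05), and Nfil3, a transcription factor, rose by 2.93. Nfil3 passed the filter on low counts only through the CCl4 libraries, so its call could go only that way. Irf1, an interferon regulatory factor, fell by 1.41, and Junb, an AP-1 subunit on the immediate early list too, fell by 1.40. That list took 1.19%, 1.63%, 0.667% and 0.611% of Kupffer UMIs. The call of Nfil3 was lost without CCl4 1 (adjusted p = 0.136) and without CCl4 2 (0.0816), and that of Irf1 without CCl4 2 (0.0559). The other called targets, named without values after these had been seen, were Ccnd1, higher, and Saa3, Mcl1 and Cebpd, lower.

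In monocytes 3 targets were called higher and 2 lower of 23 tested, where 2.40% of all genes were called higher and 3.06% lower, with a median change of 0.17. Il1rn rose by 3.22 and Irf1 by 1.77, so Irf1 was called in opposite directions in the Kupffer and monocyte gates. Hif1a was the other called higher. Saa3, at 7407, 3957, 711 and 481 CPM, fell by 3.25, against its rise in stellate cells, and Lrg1 fell by 2.54, against its rise in endothelial cells. The corn oil monocyte values rest on 43 and 23 cells, all these monocyte calls were lost without CCl4 1 or CCl4 2 (adjusted p from 0.103 to 0.291 for the 4 genes with values here), and Irf1 also without corn oil 1 (0.0630). Without the Lyz2-low cells Il1rn (2.82), Irf1 (1.58), Saa3 (-3.32) and Lrg1 (-2.96) were called in the same directions (adjusted p from 3.75e-05 to 0.00618). Whether any of these genes answered to STAT3 in these cells was not measured.

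Other genes of the pathway were called in each class, from lists of which few genes were tested. Of all genes tested, 5.42% were called in endothelial cells, 10.2% in stellate cells, 15.3% in Kupffer cells and 5.47% in monocytes, in either direction. The lists are too short for their counts to be read against these shares. Of 9 further ligand genes of the family, 3 were tested in each of the endothelial, Kupffer and monocyte gates and 0 in stellate cells. In Kupffer cells Clcf1, a CNTF receptor ligand, rose by 1.82 (3.60, 4.02, 17.6 and 9.46 CPM), and Il27, a subunit of interleukin 27, which uses gp130, fell by 1.59 (19.3, 21.3, 7.02 and 6.41 CPM). Of 4 further receptor genes, 3 were tested in endothelial cells, 3 in stellate cells, 1 in Kupffer cells and 2 in monocytes. Cntfr, the CNTF receptor, fell by 2.25 in endothelial cells, where it stood at 149.9, 196, 41.7 and 31.0 CPM (adjusted p = 0.00446). Il11ra1, the interleukin 11 receptor, and Il27ra fell by 2.06 and 4.31 in monocytes, the latter on 12, 3, 6 and 5 UMIs. Il27ra passed the filter on low counts only through the corn oil libraries, where it was high, so its call could go only that way. Il11ra1 stood at 89.8, 59.7, 21.5 and 15.9 CPM there. Clcf1 was lost without corn oil 1 (adjusted p = 0.0806) and CCl4 1 (0.261), Il27 without CCl4 2 (0.0627), and Il11ra1 without corn oil 1 (0.0769), CCl4 1 (0.222) and CCl4 2 (0.336). Il27ra was lost without CCl4 1 (0.748) and CCl4 2 (0.800). Without the Lyz2-low cells both Il11ra1 (-1.97, adjusted p = 0.00201) and Il27ra (-4.67, adjusted p = 0.00227) were called lower.

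Of 10 inhibitor and phosphatase genes, Socs5 rose by 1.22 in stellate cells (30.8, 22.0, 65.0 and 59.6 CPM) and Pias1 fell by 0.94 in Kupffer cells (265, 159.7, 114 and 109 CPM). They were 1 of 9 tested in stellate cells and 1 of 8 in Kupffer cells, near the 10.2% and 15.3% of all genes called there. Socs5 was lost without CCl4 1 (adjusted p = 0.229) and CCl4 2 (0.111), and Pias1 without corn oil 1 (0.0799), CCl4 1 (0.0677) and CCl4 2 (0.118). The 4 genes of receptor shedding were tested in every gate, and edgeR called 0, with 1 at an unadjusted p under 0.05 in each of the endothelial, stellate and monocyte gates and 0 in Kupffer cells. With 4 genes this cannot be told from the shares over all genes given above, and the share at the unadjusted threshold was not counted.

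Across the 16 sums, which share mice and differ in depth, the genes with the pattern most like each member were named by Pearson correlation of log2 CPM among 12628 other genes. They were Emb, S100a4 and Runx3 for Osm (r = 0.94, 0.94 and 0.93), Irf5, Nfam1 and Mkrn1 for Il6ra (0.99, 0.98 and 0.98), Msrb3, Gata4 and Tinagl1 for Il6st (0.99, 0.98 and 0.98) and Grb10, Rhoj and Csrp2 for Osmr (0.98 each). For Lifr they were Amotl2, Eng and Tinagl1 (0.99, 0.99 and 0.98), so Tinagl1 stood beside both Lifr and Il6st. For Socs3 they were Spindoc, Hdac7 and Qsox1 (0.97, 0.96 and 0.96). Stat3, whose level varied little, had lower values, with Pcbp1, Uba1 and Tmem50b (0.87, 0.86 and 0.84). Il6 and Lif were too sparse for their values to carry weight.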

How the data were processed

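UMI counts per cell and gene were deposited as 1 table for each of 4 libraries. Per the file headers, the authors made these counts with the BD WTA Rhapsody Analysis Pipeline 1.9.1 on GRCm38 with GENCODE vM19, with error correction of molecular barcodes, and the CCl4 1 table came from a separate run. Neither an aligner nor the use of strand is stated there. The labels place all samples in 1 batch.

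The filters required 200 genes or more per cell and no more than 25% mitochondrial UMIs. A cell entered a gate with at least 5 UMIs of its gate genes (3 for monocytes, which had at most 2 Clec4f UMIs), and cells in 2 or more gates were left out, which also served to remove doublets. No doublet caller was run. The smallest cell had 1604 UMIs, so thinning to 1500 UMIs per cell left no cell out. Intervals and floors (3 UMIs) cover counting error only. The UMIs of a gate were added up per library, and edgeR 4.0.16 (R 4.3.3) gave a quasi-likelihood test with TMM factors, filterByExpr and Benjamini-Hochberg adjustment over all genes of the gate, and called at an adjusted p under 0.05. Every adjusted p is from this test unless DESeq2 1.42.0 or limma 3.58.1 is named. The median over all genes moved to 0.10 in monocytes without TMM factors. Class differences came from 1 fit of 16 sums with the mouse as a block. The fit was tested on simulated data for the endothelial and stellate gates, with the same spread for every gene. Other steps used Python 3.11.15. Nothing says that same-numbered mice were paired.

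The members, the 6 pathway lists and the markers were chosen with earlier results of these data known. Named beside the 9 members were, per list and gate, at most 2 called genes in each direction with the greatest change, and the 3 genes most like each member. The list of kinase and adaptor genes is not reported here. The monocyte gate with at least 5 Lyz2 UMIs was added after the data had been seen. Within a gate, the p-values weigh the group difference against the spread of the 2 mice within each group, moderated over all genes. Those of the joint fit weigh it against the spread of the gates within mice, since the mouse was a block. Within a gate, a change of state and a change in the mixture of cells cannot be told apart.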

Additional observations from a re-analysis of the deposited data

Results flagged for a closer look

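The CCl4 effect on 5 of the 9 genes was called as different between 2 cell classes, by the interaction test of the joint fit (edgeR, 8 of 54 tests). Of all genes, 2.52% were called between Kupffer and endothelial cells and 0.784% between Kupffer and stellate cells. For monocytes it was 14.2% against Kupffer cells and 12.9% against stellate cells. Il6ra differed by -1.45 between Kupffer and endothelial cells and by 1.92 between monocytes and Kupffer cells. Il6st differed by -1.76 between Kupffer and stellate cells and by -1.46 between monocytes and stellate cells. Lifr differed by -2.24 between Kupffer and stellate cells and by 1.65 between monocytes and Kupffer cells. Stat3 differed by 0.69 between monocytes and Kupffer cells. Osmr differed by -4.16 between monocytes and stellate cells, a value whose sign rests on 8 Lyz2-low cells of corn oil 1. Without the Lyz2-low cells the monocyte calls of Il6st (against stellate cells) and Lifr (against Kupffer cells) were lost too. Both Lifr calls were lost among cells free of markers of other gates, and the calls depended on both CCl4 mice.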

How the results depend on the processing

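Counts of called members and genes moved more than directions did. Of the 75 alternative fits in which called members were tested, 64 kept the call, 11 lost it and 0 changed sign. The 75 leave out the fits in which Il6 in monocytes, called in the main fit, no longer passed the filter on low counts. These were the fits without any 1 library or without the 5% of cells with the most UMIs. DESeq2 called 1482, 609, 873 and 903 genes in the endothelial, stellate, Kupffer and monocyte gates, and 3 members in endothelial cells. Without the filter on low counts 2302, 1577, 2321 and 2061 genes were called, with 5 members in endothelial cells and 5 in monocytes. Without TMM factors 1 endothelial member was called, with at most 15% mitochondrial UMIs 1 stellate member, among cells free of other markers 1 Kupffer member, and without the 5% of cells with the most UMIs 0 monocyte members. The Lyz2 gate called 1081 monocyte genes. Class differences of the CCl4 effect were called 16 times by limma-voom, 21 without the filter and 14 with doubled gate thresholds. The counts over all genes moved too. For monocytes minus Kupffer cells, 922 genes were called higher and 867 lower of 12629 in the main fit. For the same pair it was 1450 and 1788 of 12629 by limma-voom, 1662 and 803 of 22426 without the filter, and 1022 and 911 of 12467 with doubled thresholds. The cause of these shifts was not tested, except that the unfiltered fits test more genes.

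Same-numbered mice deviated together with a correlation of 0.0750, -0.0030, 0.0870 and 0.157 in the 4 gates. With 2 mice per group these values cannot exclude a pairing. The numbers were not taken as one because nothing says that they pair mice. With a replicate block 2051, 973, 1893 and 374 genes were called, and 2, 3, 2 and 1 members. The monocyte call of Il6 (adjusted p = 0.0774) and of Il27ra (0.0567) was lost, and Lifr and Stat3 in endothelial cells and Socs3 in stellate cells became called (adjusted p = 0.0198, 0.00591 and 0.0334).

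With 1 library left out, the genes called ran from 183 to 894, 107 to 1345, 585 to 1464 and 0 to 1658 in the 4 gates, the members called from 0 to 1, 1 to 4, 0 to 3 and 0 to 4, and the called class differences of the effect from 0 to 12. A gate with 1 mouse in a group takes its spread from the other mice. Uncalled changes near 0 or with few UMIs changed sign. In endothelial cells Osmr ran from -0.38 to 0.10 and Socs3 from -0.38 to 0.58. In stellate cells Il6ra ran from -0.63 to 1.35 and Lifr from -0.070 to 0.57, and Socs3 in Kupffer cells ran from -1.22 to 0.028. In monocytes Lif ran from -1.37 to 0.12, Il6st from -0.73 to 0.54 and Osmr from -3.11 to 8.63, and the Osmr effect of monocytes minus stellate cells from -4.75 to 7.66. Level differences of stellate minus endothelial cells ran from -2.90 to 0.56 for Il6 and from -2.81 to 1.68 for Osm, and that of monocytes minus endothelial cells from -0.135 to 0.059 for Stat3. Those of monocytes minus Kupffer cells ran from -1.01 to 0.39 for Il6, -0.18 to 0.070 for Il6ra, -0.18 to 0.72 for Il6st and -3.50 to 3.06 for Osmr.

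Il6ra in stellate cells was 0.0013 by DESeq2, 0.0027 without TMM factors, 0.18 by limma-voom, 0.057 unfiltered, 0.071 with the replicate block and 0.17 among cells free of other markers. Without the 5% of cells with the most UMIs Stat3 in Kupffer cells was 0.014 and Lif in monocytes 0.78, and the level differences of Stat3 (monocytes minus endothelial cells) and Il6ra (monocytes minus Kupffer cells) were 0.040 and 0.060. With the Lyz2 gate the monocyte changes of Lif, Il6st and Osmr were 1.12, 0.32 and 7.20, the Osmr effect of monocytes minus stellate cells 6.78, and the level differences of monocytes minus Kupffer cells 0.084 for Il6ra, -0.044 for Il6st and -3.86 for Osmr. Depth limits what can be said of Il6 and Lif, with at most 35 UMIs in any gate and library, and of Osmr in Kupffer cells, with 11, 13, 14 and 3, and the corn oil monocyte gates had 43 and 23 cells.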

Other observations

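Fibroblast-gate cells, 12, 13, 59 and 22 in the 4 libraries and too few to be tested, had Osmr at 187, 88.9, 262 and 349 CPM. The 2 CCl4 mice were above the 2 corn oil mice there as well. Conventional dendritic cells had an Il6ra UMI in 72.0%, 67.6%, 57.3% and 71.4% of cells before thinning. Cells that met none of the gates held 23, 22, 212 and 167 Osm UMIs, which was 17.6%, 25.6%, 12.4% and 10.4% of the Osm UMIs of their library.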
